A study of Mus musculus with 8 samples.

Results

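CXC and CX3C chemokines are small secreted or membrane-anchored proteins named for the spacing of their first pair of cysteines, and they were followed here in the livers of mice fed a bile duct-injuring diet. The 10 genes are Cxcl1, Cxcl2, Cxcl5, Cxcl9, Cxcl10, Cxcl12, Cxcl13, Cxcl14, Cxcl16 and Cx3cl1, chosen by symbol from the 33467 genes of the deposited expression table, where each symbol stood on 1 row. Polyadenylated RNA of whole liver was sequenced from 8 wild-type C57BL/6J mice. In the DDC group, 4 animals ate chow with 1% 3,5-diethoxycarbonyl-1,4-dihydrocollidine (DDC), a porphyrinogenic compound that causes cholestasis and fibrosis around bile ducts, for 4 weeks. In the Control group, 4 animals ate a standard diet for the same 4 weeks. Both groups share genotype, strain, housing and the single batch label, while the sources used here do not state sex or age. The labels call the libraries biological replicates.

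Chemokines bind to heparan sulphate on cell surfaces and form gradients that draw leukocytes through G protein-coupled receptors. In liver, Cxcl1, Cxcl2 and Cxcl5 recruit neutrophils through Cxcr2, Cxcl9 and Cxcl10 recruit activated T cells through Cxcr3, and Cxcl12 retains Cxcr4-bearing cells. Cxcl13 guides B cells through Cxcr5, while Cxcl16 and Cx3cl1 are made as membrane-anchored proteins, bind Cxcr6 and Cx3cr1, and are released by proteases.

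Cxcl1, Cxcl2 and Cxcl3 are near neighbours in 1 cluster on chromosome 5, and Cxcl10 lies in another. The log2 fold changes of the 4 genes were -0.28 for Cxcl1, 4.18 for Cxcl2, 1.86 for Cxcl3 and 2.45 for Cxcl10. Among the members and other CXC ligands with a promoter sequence, only these 4 held NF-kB-type letters in the 250 bases before the start site. The stretches printed below are theirs, so all of them carry the letters by that choice. They are RefSeq sequences on GRCm38.p6, written 5′ to 3′ on the gene's strand, with capitals for matches to GGGNNNTTCC (NF-kB) and, in Cxcl10, also to TTTCNNTTTC (ISRE, the interferon-stimulated response element), on either strand.
Cxcl1, chr5:90891125-90891214, plus strand: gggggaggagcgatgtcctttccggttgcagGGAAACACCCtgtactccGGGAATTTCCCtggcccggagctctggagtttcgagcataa
Cxcl2, chr5:90903779-90903868, plus strand: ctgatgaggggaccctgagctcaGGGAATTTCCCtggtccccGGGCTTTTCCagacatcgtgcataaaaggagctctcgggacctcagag
Cxcl3, chr5:90785981-90786070, plus strand: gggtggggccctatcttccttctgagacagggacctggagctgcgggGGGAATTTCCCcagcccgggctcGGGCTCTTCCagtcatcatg
Cxcl10, chr5:92348980-92349109, minus strand: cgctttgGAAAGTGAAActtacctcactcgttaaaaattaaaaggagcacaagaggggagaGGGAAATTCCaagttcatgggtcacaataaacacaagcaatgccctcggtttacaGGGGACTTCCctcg

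Cxcl1, Cxcl2 and Cxcl3 each held GGGAATTTCC, from base -71, -97 and -73 before the start site. In each, a second match on the opposite strand overlapped it by all but 1 base. Cxcl10 held GGGAAATTCC from base -159, GGGGACTTCC from base -104 and the ISRE-type GAAAGTGAAA from base -213. Of 32851 promoter windows of the same 250 bases before a start site, 4.65% held the NF-kB letters, 2.98% the ISRE letters and 7.02% TTCNNNGAA, the interferon-gamma activated site (GAS). Of the 8 member genes with a RefSeq promoter, Cxcl1, Cxcl2 and Cxcl10 held the NF-kB letters, Cxcl10 and Cxcl14 the ISRE letters and Cxcl14 the GAS letters. A match describes the letters and does not show that a factor binds there.

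Library totals ran from 63312756 to 81664058 counts in DDC livers and from 61179103 to 64768950 in Control livers. Values are TMM-scaled CPM, counts relative to a library total that is adjusted so that most genes show little change between libraries, and tests are edgeR quasi-likelihood with Benjamini-Hochberg adjustment over all 19535 genes tested. The scaling matters to every value: the factors ran from 1.21 to 1.27 in DDC and from 0.792 to 0.816 in Control. Scaling by library totals alone put the median gene at a log2 fold change of 0.70, against 0.07 with TMM, and 86.8% of all calls were then higher, against 53.1% with TMM. All 7 hepatocyte markers fell, as did 26.6% of all genes tested. Cps1 lost its call with library totals alone and in 3 other settings (adjusted p 0.183 to 0.367). The summed level of the 7 markers was 56973 to 72195 CPM in DDC and 141413 to 166057 CPM in Control. In whole liver, fewer cells of a type and less RNA per cell cannot be told apart.

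All 10 genes passed the filter on low counts. In DDC livers 7 of them rose, Cxcl2, Cxcl14, Cxcl5, Cxcl16, Cxcl10, Cx3cl1 and Cxcl9, and 1 fell, Cxcl12. Cxcl1 and Cxcl13 were not called. Across all genes tested, 56.8% were called, 30.2% higher and 26.6% lower. The 7 that rose had no overlap between the groups, as did 26.9% of all genes with DDC higher, and Cxcl12 was lower in every DDC liver than in any Control liver, as were 25.7% of all genes. The median log2 fold change was 2.35 over the 10 genes and 0.07 over all genes tested. The 10 genes were chosen with earlier results of these data known, so these medians are a description and no test. With library totals alone in place of TMM, the same 7 rose and Cxcl12 fell.

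**Figure D1:**
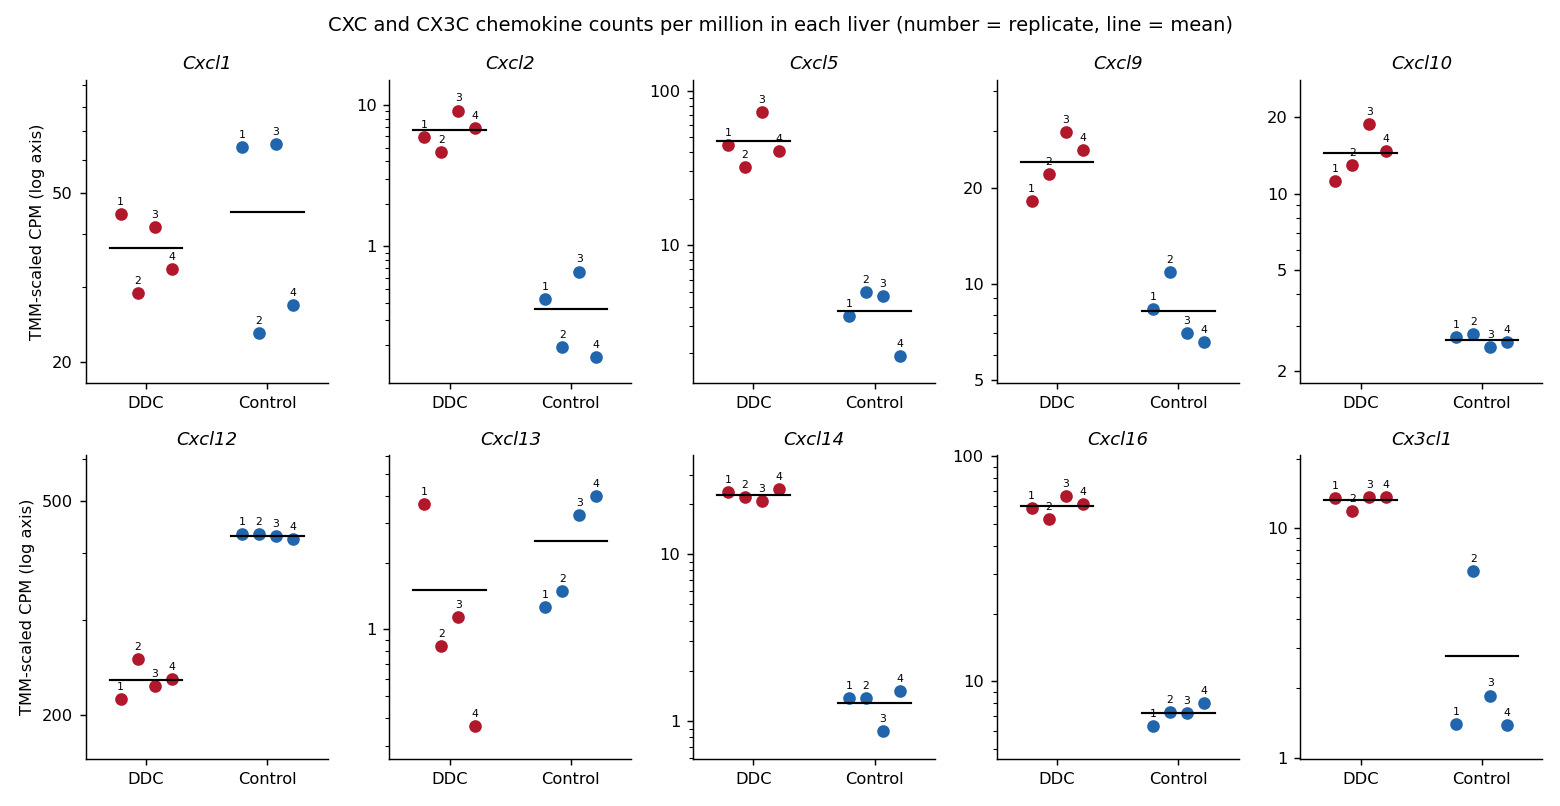
TMM-scaled CPM of the 10 chemokines in each liver, on log axes that differ between panels. Red points are the 4 DDC livers and blue points the 4 Control livers, numbered by replicate, with a line at the group mean. The groups are apart for 8 genes, while those of Cxcl1 and Cxcl13 overlap.

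Among the Cxcr2 ligands, Cxcl2 and Cxcl5 rose and Cxcl1 was not called. Cxcl2, a macrophage-derived neutrophil attractant (ENSMUSG00000058427, chromosome 5, 90903871 to 90905938, plus strand), was measured at 5.97, 4.64, 9.14 and 6.89 CPM in DDC 1 to 4, against 0.427, 0.196, 0.666 and 0.165 CPM in Control 1 to 4. Every DDC liver stood above every Control liver, with DDC 3 the highest. The rise was 18.2-fold (log2 fold change 4.18, SE 0.45, edgeR adjusted p = 3.47e-05), on 392 to 947 counts per DDC library and 8 to 35 per Control library. On the log2(FPKM + 1) scale, where the pseudocount is far above the Control level, the log2 fold change was 2.08.

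Cxcl5, an epithelial neutrophil attractant (ENSMUSG00000029371, chromosome 5, 90759360 to 90761624, plus strand), reached 44.4, 32.1, 72.7 and 40.6 CPM in DDC 1 to 4, against 3.47, 5.00, 4.70 and 1.92 CPM in Control 1 to 4. DDC 3 was again the highest and DDC 2 the lowest of its group. The rise was 12.6-fold (log2 fold change 3.65, SE 0.37, adjusted p = 6.54e-05).

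Cxcl1, the mouse keratinocyte-derived chemokine (ENSMUSG00000029380, chromosome 5, 90891241 to 90893115, plus strand), was already abundant without DDC. It stood at 44.6, 29.1, 41.7 and 33.1 CPM in DDC 1 to 4, against 64.3, 23.4, 65.3 and 27.2 CPM in Control 1 to 4. All 4 DDC livers lay between a low pair, Control 2 and 4, and a high pair, Control 1 and 3. The means were 37.1 ± 7.26 CPM in DDC and 45.1 ± 22.8 CPM in Control (SD, n = 4 each), a log2 difference of -0.28 (SE 0.37, adjusted p = 0.538). Its sign turned with library totals alone, to 0.34, and the spread of the Control livers leaves a change of either sign unresolved. Cxcl2 showed the same pairs in the Control livers, with Control 3 and 1 above Control 2 and 4. A chi-square of the counts, summed over genes with enough counts, gave the same pairs. Per degree of freedom it was 13.5 between Control 1 and 3 and 62.7 between Control 2 and 4. Across the pairs it was 162 to 220. Abundant genes weigh most in this sum, so it does not show how many genes split this way. Cxcl5, for one, did not, at 3.47, 5.00, 4.70 and 1.92 CPM in Control 1 to 4. What set the pairs apart was not tested.

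Cxcl9, induced by interferon-gamma in macrophages (ENSMUSG00000029417, chromosome 5, 92321347 to 92328079, minus strand), stood at 18.1, 22.0, 29.9 and 26.2 CPM in DDC 1 to 4, against 8.34, 10.9, 7.02 and 6.58 CPM in Control 1 to 4. It rose 2.93-fold (log2 fold change 1.55, SE 0.20, adjusted p = 0.000113), the smallest of the 7 rises in fold. Cxcl10, induced by both interferon classes (ENSMUSG00000034855, chromosome 5, 92346638 to 92348882, minus strand), was 11.2, 13.0, 18.8 and 14.7 CPM in DDC 1 to 4, against 2.72, 2.80, 2.47 and 2.60 CPM in Control 1 to 4. The Control livers were nearly equal to each other, and the rise was 5.45-fold (log2 fold change 2.45, SE 0.17, adjusted p = 1.68e-06). Both Cxcr3 ligands had the same order in the DDC livers, with DDC 3 highest, then DDC 4, DDC 2 and DDC 1.

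Cxcl12, stromal cell-derived factor, which stellate and endothelial cells of liver make (ENSMUSG00000061353, chromosome 6, 117168535 to 117181367, plus strand), was the most abundant member in counts and the one that fell. It measured 214, 254, 226 and 233 CPM in DDC 1 to 4, against 435, 434, 430 and 424 CPM in Control 1 to 4. The Control livers differed by no more than 1.02-fold, and the DDC livers by 1.18-fold. Cxcl12 fell 1.86-fold (log2 fold change -0.89, SE 0.06, adjusted p = 2.49e-06). How far it fell rests on scaling: with library totals alone the log2 fold change was -0.27 (adjusted p = 0.00333), where the median gene stood at 0.70.

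Cxcl13, the B cell attractant made by follicular stroma and macrophages (ENSMUSG00000023078, chromosome 5, 95956951 to 95961068, plus strand), varied most among the DDC livers. It was 3.65, 0.84, 1.14 and 0.369 CPM in DDC 1 to 4, against 1.26, 1.49, 3.27 and 3.98 CPM in Control 1 to 4. DDC 1, with 283 counts against 34 to 118 in the other 3, fell within the Control range. The log2 difference was -0.74 (SE 0.67, adjusted p = 0.370) with all libraries and -1.69 (adjusted p = 0.0191) without DDC 1, so the call depends on that library. DDC 1 also stood apart in the chi-square summed over genes, at 89.7 to 98.9 per degree of freedom from the other DDC livers. Those were at 15.9 to 22.5 from each other. What set DDC 1 apart was not tested.

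Cxcl14, a chemokine of epithelia and fibroblasts whose receptor is not settled (ENSMUSG00000021508, chromosome 13, 56288643 to 56296551, minus strand), was 23.5, 22.1, 20.9 and 24.5 CPM in DDC 1 to 4, against 1.38, 1.37, 0.875 and 1.51 CPM in Control 1 to 4. It rose 17.7-fold (log2 fold change 4.15, SE 0.16, adjusted p = 9.17e-08). The fold is close to that of Cxcl2, but the DDC livers were far more alike, with an SD of 6.89% of the mean for Cxcl14 and 28.5% for Cxcl2.

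Both membrane-anchored chemokines rose. Cxcl16, which also acts as a scavenger receptor for oxidised lipoprotein (ENSMUSG00000018920, chromosome 11, 70453983 to 70459984, minus strand), was 58.9, 52.7, 66.4 and 61.5 CPM in DDC 1 to 4, against 6.36, 7.33, 7.21 and 7.99 CPM in Control 1 to 4. It rose 8.29-fold (log2 fold change 3.05, SE 0.10, adjusted p = 3.70e-08), with the smallest adjusted p of the 10 genes.

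Cx3cl1, fractalkine, which is found on endothelium and bile duct epithelium (ENSMUSG00000031778, chromosome 8, 94772009 to 94782427, plus strand), was 13.5, 11.8, 13.7 and 13.6 CPM in DDC 1 to 4, against 1.40, 6.46, 1.86 and 1.38 CPM in Control 1 to 4. Control 2 stood apart from the other Control livers and still lay below every DDC liver. The rise was 4.73-fold (log2 fold change 2.24, SE 0.50, adjusted p = 0.00492), and without Control 2 the log2 fold change was 3.08 (adjusted p = 1.06e-06). Of 7 bile duct epithelial markers 6 rose, where 30.2% of all genes tested did. The summed level of the 7 was 716 to 1103 CPM in DDC livers and 67.3 to 145 CPM in Control livers. The 145 CPM was in Control 2, against at most 76.5 CPM in the other Control livers. Control 2 was also apart for the sum of 5 mesothelial markers, at 69.3 CPM, against 13.6 to 19.5 CPM in the other Control livers. Krt19, which is on both lists, reached 60.7 CPM there, where Control 1, 3 and 4 had 5.37 to 13.3 CPM. Acta2, a smooth muscle and stellate cell actin, had a log2 difference of -0.25 with all libraries and 1.60 (adjusted p = 0.000673) without Control 2. None of the bile duct markers was at 0 in any library, and the part of these genes in the Cx3cl1 level was not tested.

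**Figure D2:**
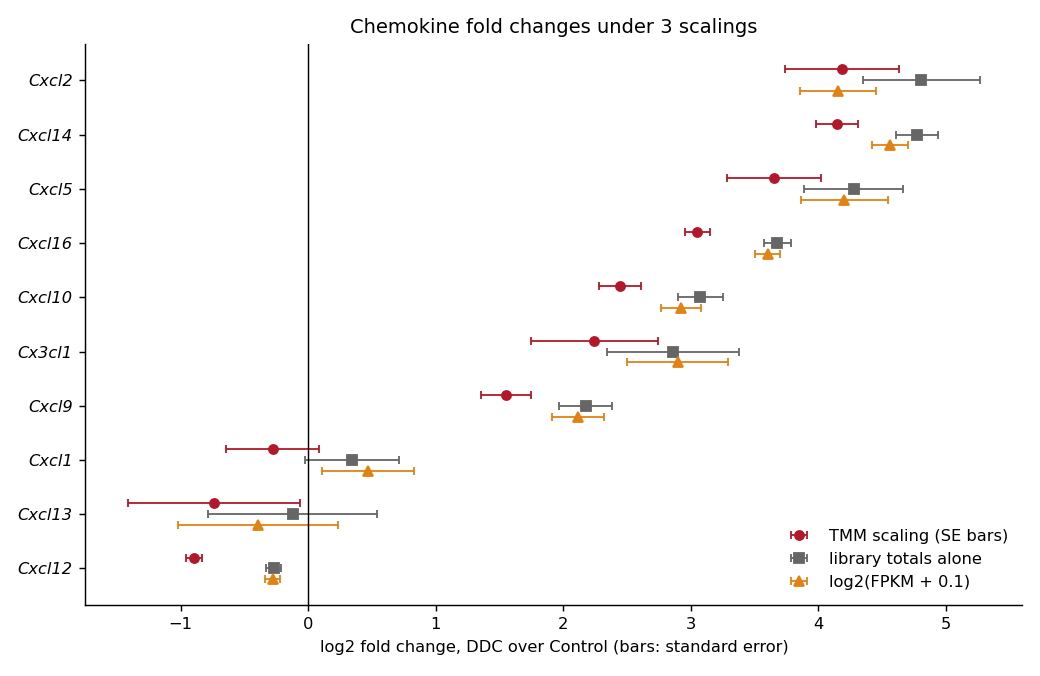
Log2 fold change of DDC over Control for each of the 10 chemokines, with standard errors, under TMM scaling (circles), library totals alone (squares) and limma on log2(FPKM + 0.1) (triangles). Cxcl1 is at -0.28 with TMM and at 0.34 and 0.47 with the other settings, while the 7 genes that rose and Cxcl12 keep their side of 0.

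Over the 19 alternative settings the 7 rises kept their calls, and their size moved with the scale. The log2 fold change ran from 2.08 to 4.81 for Cxcl2, from 3.38 to 4.28 for Cxcl5, from 1.43 to 2.17 for Cxcl9 and from 2.16 to 3.07 for Cxcl10. It ran from 3.37 to 4.77 for Cxcl14, from 2.99 to 3.68 for Cxcl16 and from 1.73 to 3.08 for Cx3cl1. The low end for Cxcl2, Cxcl10, Cxcl14 and Cx3cl1 came from log2(FPKM + 1), where low Control values are damped.

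Levels of different genes can be compared only per length, so the deposited FPKM values, which are not TMM-scaled, were used. In Control livers Cxcl12 led at 41.0 ± 0.983 FPKM, followed by Cxcl1 at 18.7 ± 9.56 FPKM (SD, n = 4). Each stood clear of the next gene, and the other 8 genes averaged 0.125 to 2.12 FPKM. From Cxcl9 down to Cxcl14, each gene's range overlapped that of the next. Cxcl2 was lowest in Control livers and its range lay below that of Cxcl14.

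In DDC livers the order changed. Cxcl12 was at 33.8 ± 2.21, Cxcl5 at 30.6 ± 11.9, Cxcl16 at 23.7 ± 2.75 and Cxcl1 at 23.7 ± 4.74 FPKM (SD, n = 4), and each overlapped its neighbour in this order. Cxcl14 followed at 14.9 ± 1.07 FPKM and stood clear of the genes on either side. Below it, Cxcl9 and Cxcl10 overlapped each other at 9.54 and 7.67 FPKM, and Cx3cl1 and Cxcl2 overlapped at 4.00 and 3.85 FPKM. Cxcl13 was lowest at a mean of 1.54 FPKM (0.379 to 3.73 FPKM), with DDC 1 inside the range of Cxcl2.

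Summed over the 10 genes, DDC livers held 153 ± 21.4 FPKM and Control livers 69.1 ± 9.44 FPKM (SD, n = 4 each). The lowest DDC liver, at 131 FPKM, was above the highest Control liver, at 78.4 FPKM. The log2 ratio of the group means was 1.15, on a scale that TMM does not adjust. On log2(FPKM + 0.1) the median gene tested itself stood at a log2 fold change of 0.60. Cxcl12 made up 22.4% ± 3.89 of the sum in DDC livers and 60.1% ± 7.63 in Control livers. Cxcl5 made up 19.5% ± 4.66 in DDC livers and 2.28% ± 0.879 in Control livers. Without Cxcl12, the other 9 genes summed to 119 ± 22.2 FPKM in DDC and 28.1 ± 9.03 FPKM in Control. In TMM-scaled CPM, which is not divided by gene length, the sum over the 10 genes was 459 ± 28.8 in DDC and 505 ± 23.3 in Control, and Cxcl12 supplied 50.7% of it in DDC and 85.5% in Control. Scaled by library totals alone, still without division by length, the sum was 570 ± 46.8 CPM in DDC and 407 ± 21.6 CPM in Control (SD, n = 4 each). The direction of this sum in CPM thus turned with TMM scaling.

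**Figure D3:**
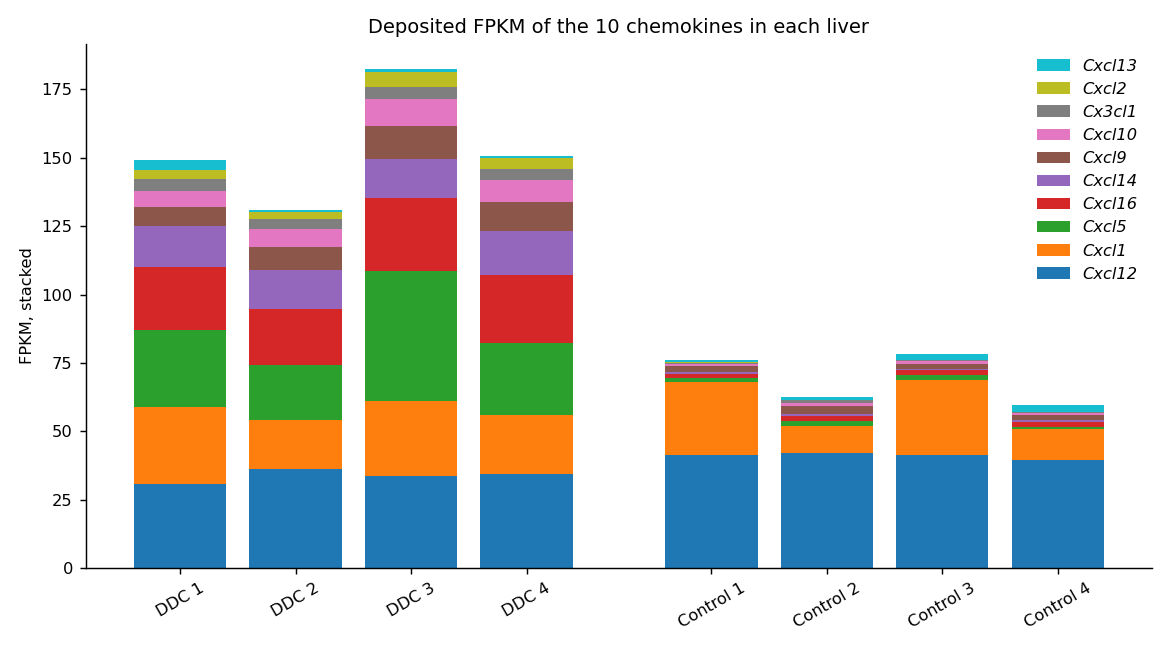
Deposited FPKM of the 10 chemokines stacked for each of the 8 livers, DDC left and Control right. Control bars reach 59.6 to 78.4 FPKM and are mostly Cxcl12 and Cxcl1, while DDC bars reach 131 to 182 FPKM and are spread over more genes.

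The order of animals differed between genes. DDC 3, the deepest library, was the highest DDC liver in CPM for Cxcl2, Cxcl5, Cxcl9, Cxcl10 and Cxcl16. For Cx3cl1, DDC 1, 3 and 4 were nearly level, at 13.54, 13.65 and 13.64 CPM. DDC 2 was the lowest for Cxcl1, Cxcl2, Cxcl5, Cxcl16 and Cx3cl1. Bile duct markers were likewise highest in DDC 3, at 1103 CPM, and lowest in DDC 2, at 716 CPM. Their part in the order of the chemokines was not tested. Among the 10 genes, Cxcl13 spanned 9.89-fold between the highest and lowest DDC liver, Cxcl5 2.26-fold and Cx3cl1 1.16-fold.

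The genes whose log2 CPM followed each member most closely over the 8 libraries were named by Pearson r among 15543 genes. With 2 well separated groups, a high r mostly restates the group difference, so r of the deviations from the group means stands beside it. Cxcl1 was followed by Nfkbia, which encodes an inhibitor of NF-kB (r = 0.960, deviations 0.960), and by Cyp2b13 (0.957, deviations 0.959). Nfkbia itself was not called with TMM, though higher in 4 settings on library totals or FPKM (adjusted p 0.00641 to 0.0128), at 49.4, 44.7, 52.6 and 48.7 CPM in DDC 1 to 4, against 58.1, 42.2, 62.3 and 40.9 CPM in Control 1 to 4. It showed the same high pair and low pair of Control livers as Cxcl1, the pairs that the chi-square summed over genes also gave.

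Cx3cl1 was followed by Abr (r = 0.997, deviations 0.988) and Prom1, a membrane protein of bile duct and progenitor cells (0.996, deviations 0.984). The deviations of Cx3cl1 rest largely on Control 2, at 1.54 in log2 CPM, against -0.66 to 0.06 in the other libraries. Cxcl9 was followed by Hbegf, an EGF receptor ligand (0.997, deviations 0.978), and Asf1b (0.993, deviations 0.941). Cxcl10 was followed by Tgtp2, an interferon-inducible GTPase (0.998, deviations 0.931), and Bcap29 (0.997, deviations 0.892). Cxcl16 was followed by Cdh17 and Gm15931, both with r = 0.998, but the r of their deviations was 0.701 and 0.622. For Cxcl2 the genes were Fhl3 and Rnf220, for Cxcl5 Gpx8 and Fgd3, and for Cxcl12 Ugt2a3 and Sec24a. For Cxcl13 they were Inpp4b and Cox7a1, and for Cxcl14 Tifab and Nrros. In these 5 cases r was 0.945 to 0.999, and r of the deviations 0.892 to 0.988. All these values are descriptions over 8 libraries that share 2 groups, with no test. The genes were picked on r, which includes the deviations, so the second r is not a separate check.

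Most of the CXC genes sit in clusters on chromosome 5, and neighbours differed in their calls. The first cluster spans 147 kb (90759360 to 90905938) with Cxcl5, Ppbp, Pf4, Cxcl3, Cxcl1 and Cxcl2 in that order. Cxcl1 and Cxcl2 are 10.8 kb apart, with log2 fold changes of -0.28 and 4.18. Pf4, platelet factor 4, rose 6.80-fold to 5.56 ± 0.819 CPM in DDC, against 0.814 ± 0.449 CPM in Control (adjusted p = 0.000274). Ppbp, the platelet basic protein gene 2.37 kb away, fell 3.58-fold to 0.278 ± 0.137 CPM in DDC, against 0.999 ± 0.177 CPM in Control (adjusted p = 0.00437). Both encode proteins stored in platelet granules. Cxcl3, a further Cxcr2 ligand, averaged 0.748 ± 0.502 CPM in DDC and 0.204 ± 0.0852 CPM in Control (adjusted p = 0.0283), with overlapping groups. That call was lost without DDC 3, DDC 4, Control 1, Control 2 or Control 4 and in 2 other settings (adjusted p 0.0547 to 0.144).

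The second cluster spans 44.1 kb (92321347 to 92365485) and holds Cxcl9, Cxcl10 and Cxcl11. Cxcl11, the third Cxcr3 ligand, was 1.64 ± 0.544 CPM in DDC and 1.61 ± 0.400 CPM in Control and was not called (log2 difference 0.02, SE 0.32, adjusted p = 0.960). The deposited table lists a polymorphic pseudogene transcript for it, and the C57BL/6 allele is known not to give a functional protein. Cxcl17, a mucosal chemokine on chromosome 7, rose 4.36-fold to 1.10 ± 0.517 CPM in DDC, against 0.251 ± 0.143 CPM in Control (edgeR adjusted p = 0.00622). It had only 6 to 23 counts per Control library. No row of the table carried the symbol Cxcl15. In all, of the 5 other CXC ligands tested 3 rose and 1 fell, where 30.2% of all genes tested rose and 26.6% fell.

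**Figure D4:**
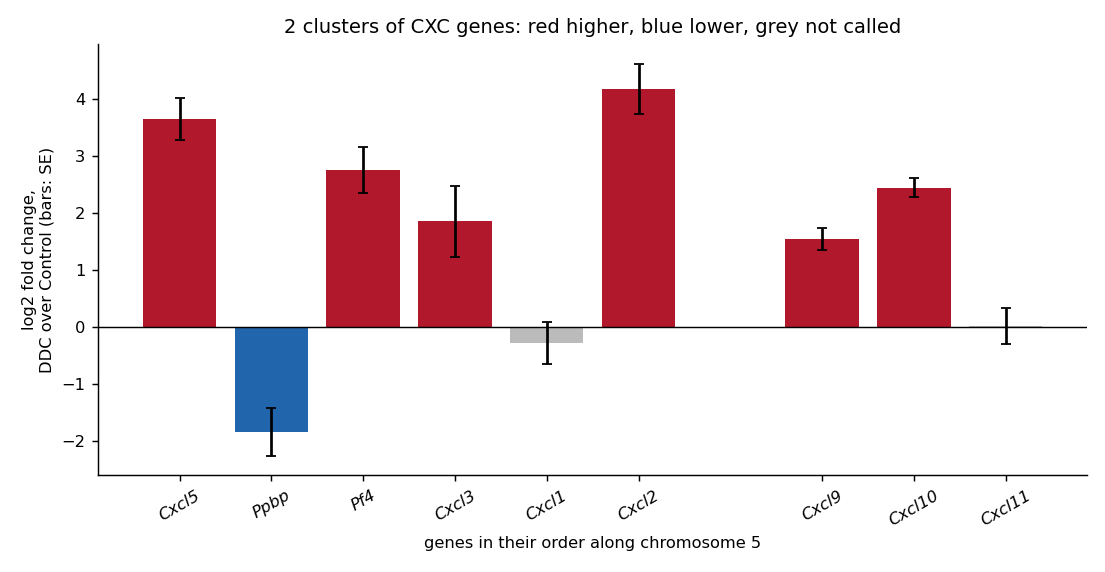
Log2 fold change of DDC over Control, with standard errors, for 9 CXC genes in their order along chromosome 5, with a gap between the 2 clusters. Red bars were called higher, blue lower and grey not called. Cxcl1 and Ppbp stand beside genes that rose.

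Receptors for these ligands were also measured. Of 9 listed receptors 7 passed the count filter, and 4 of them rose and none fell, where 30.2% of all genes tested rose and 26.6% fell. Cx3cr1, the fractalkine receptor of monocytes, was 17.2, 25.1, 19.7 and 19.2 CPM in DDC 1 to 4, against 0.718, 0.744, 1.27 and 1.22 CPM in Control 1 to 4 (log2 fold change 4.36, SE 0.23, adjusted p = 3.49e-07). The rise was 20.5-fold, and that of its ligand Cx3cl1 was 4.73-fold.

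Cxcr2, the neutrophil receptor, was 12.7, 8.09, 11.8 and 8.99 CPM in DDC 1 to 4, against 1.05, 0.705, 1.54 and 1.07 CPM in Control 1 to 4, a rise of 9.50-fold (log2 fold change 3.25, SE 0.26, adjusted p = 5.01e-06). Cxcr4, the Cxcl12 receptor, was 12.7, 11.1, 10.8 and 10.2 CPM in DDC 1 to 4, against 3.12, 1.92, 3.33 and 2.33 CPM in Control 1 to 4. It rose 4.18-fold (adjusted p = 1.12e-05) while its ligand fell 1.86-fold. Ackr3, the scavenging receptor for Cxcl12, was not called (log2 difference -0.05, SE 0.31, adjusted p = 0.906), and its sign changed in 9 settings.

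Cxcr6, the Cxcl16 receptor of T and NKT cells, was 1.48, 1.60, 1.83 and 1.81 CPM in DDC 1 to 4, against 0.504, 1.195, 0.247 and 0.0826 CPM in Control 1 to 4. It rose 3.31-fold (adjusted p = 0.0401), a call lost when DDC 2, DDC 3, DDC 4, Control 1 or Control 3 was left out (adjusted p 0.0718 to 0.0988). Cxcr3, the receptor of Cxcl9 and Cxcl10, was not called. It had 68 to 108 counts per library in DDC and 38, 59, 58 and 0 counts in Control 1 to 4, and a count of 0 allows up to 3 (log2 difference 0.41, SE 0.82, adjusted p = 0.687). Only limma on log2(FPKM + 1) called it higher (log2 difference 0.35, adjusted p = 0.0475). Ackr1, the Duffy receptor of venules, was not called (log2 difference 0.01, SE 0.38, adjusted p = 0.980). Cxcr1 and Cxcr5 were not tested: Cxcr1 had 11 to 29 counts in DDC and 0 to 8 in Control, and Cxcr5 7 to 14 in DDC and 4 to 14 in Control.

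**Figure D5:**
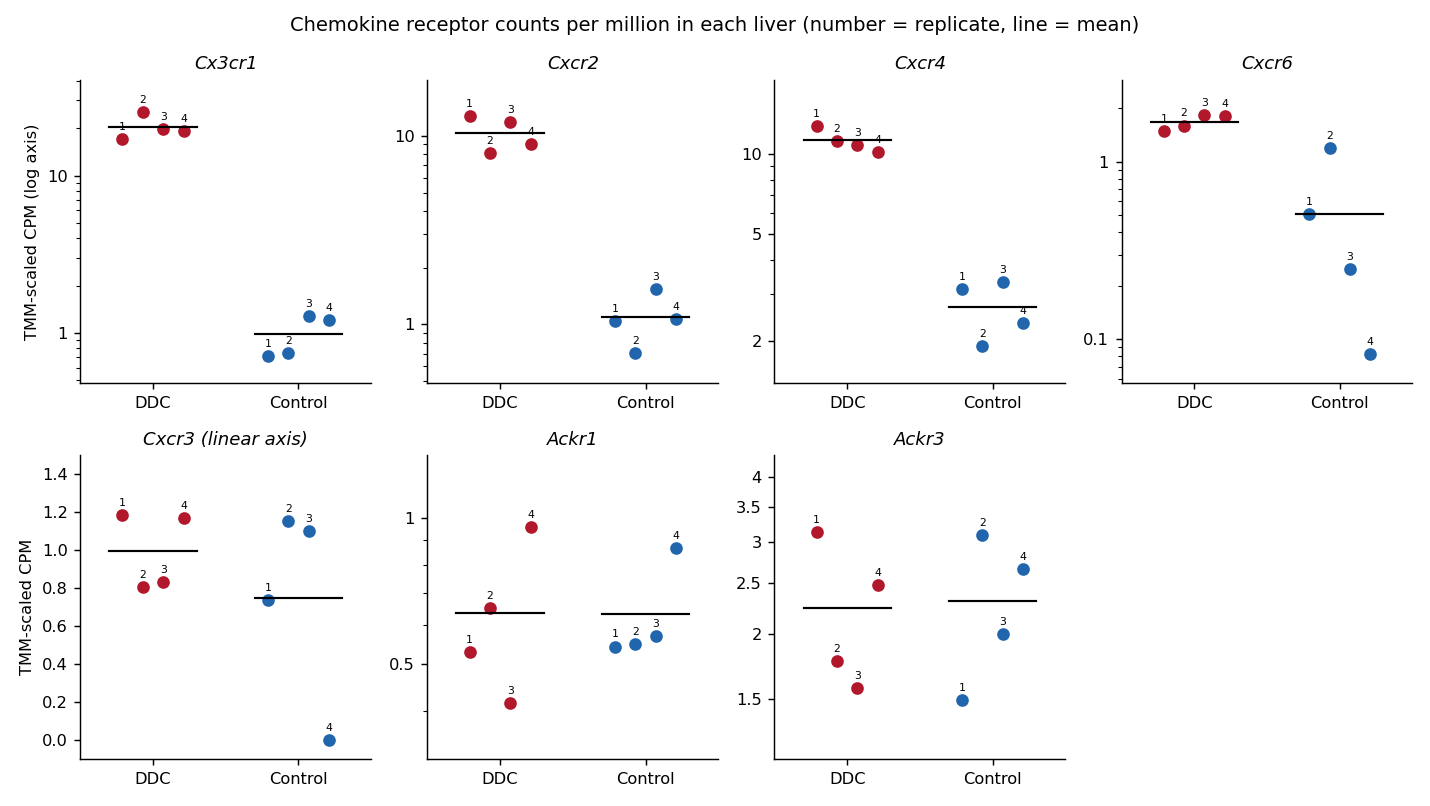
TMM-scaled CPM of the 7 receptors tested, in each liver, with replicate numbers and group means; axes are log except that of Cxcr3, where Control 4 is at 0. The groups are apart for Cx3cr1, Cxcr2, Cxcr4 and Cxcr6 and overlap for Cxcr3, Ackr1 and Ackr3.

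Of 6 proteases that release or trim chemokines 5 rose and 1 fell, where 30.2% of all genes tested rose and 26.6% fell. Adam10, which sheds Cxcl16 and Cx3cl1 in resting cells, rose 2.22-fold to 60.7 ± 2.11 CPM in DDC, against 27.4 ± 1.53 CPM in Control (adjusted p = 3.00e-07). Adam17, which sheds both after stimulation, rose 1.19-fold (adjusted p = 0.00912). Dpp4, which inactivates Cxcl12 and Cxcl10 by trimming their amino end, fell 2.33-fold to 57.0 ± 2.19 CPM in DDC, against 133 ± 10.7 CPM in Control (adjusted p = 5.65e-07). Mmp12, Mmp9 and Mmp8, which clip several CXC chemokines, rose 82.9-fold, 6.45-fold and 3.34-fold, while the groups overlapped for Mmp8, which limma voom did not call (adjusted p = 0.0691).

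A list of 13 NF-kB pathway genes was taken as upstream of the Cxcr2 ligands. Of these, 8 rose, 1 fell and 4 were not called, where 30.2% of all genes tested rose and 26.6% fell. The median log2 fold change was 0.92, against 0.07 over all genes. This list, like those below, was chosen with earlier results of these data known, so its median is a description and no test. Tnf, which induces NF-kB, rose 18.0-fold, Relb 7.02-fold, Il1b 6.48-fold and Tnfaip3, a feedback inhibitor, 5.09-fold. Nfkb2 rose 2.03-fold and Zc3h12a, an RNase that destroys chemokine mRNAs, 1.94-fold. Ikbkb, a kinase subunit, was the weakest call (log2 fold change 0.17, adjusted p = 0.0452) and was lost whichever library but DDC 1 was left out. Zfp36, whose protein also shortens the life of chemokine mRNAs, was the member that fell. It was 80.0, 84.0, 90.0 and 82.9 CPM in DDC 1 to 4, against 320, 122, 317 and 159 CPM in Control 1 to 4 (log2 fold change -1.45, SE 0.31, adjusted p = 0.00461). The Control livers split into the same pairs as for Cxcl1, and the call was lost in both limma fits on FPKM (adjusted p 0.0656 and 0.0661).

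Of 12 interferon-gamma pathway genes, 11 were tested, 9 rose and none fell (median log2 fold change 1.45). Beside this count and that of the lymphotoxin genes below, 30.2% of all genes tested rose and 26.6% fell. Gbp2, a GTPase induced by interferon, rose 4.87-fold, Ciita, the regulator of MHC class II genes, 4.10-fold, Ifngr1, a receptor chain, 3.04-fold and Gbp5 2.90-fold. Irf8 rose 2.73-fold. Socs1, a feedback inhibitor, rose 3.81-fold at 0.603 CPM in DDC and 0.157 CPM in Control, and its call was lost without DDC 3, DDC 4, Control 3 or Control 4 and in 2 other settings (adjusted p 0.067 to 0.137). Ifng itself, named after its values were seen, was not tested, with 11, 0, 0 and 7 counts in DDC 1 to 4 and 0, 0, 1 and 0 counts in Control 1 to 4. Of 8 lymphotoxin pathway genes, a pathway known to induce Cxcl13 and, beside it, the listed chemokines Ccl19 and Ccl21a, 6 were tested, 3 rose and none fell: Ltb 9.21-fold, Tnfrsf11a 7.18-fold and Tnfsf14 2.78-fold. Ccl19 had a log2 difference of -1.83 (adjusted p = 0.0840) and was called lower without Control 2 (-2.21, adjusted p = 0.0229).

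Markers of the cells that make or answer these chemokines were also measured. Beside the counts of calls in this paragraph and the next, 30.2% of all genes tested were called higher and 26.6% lower. Of 10 neutrophil markers 5 rose and none fell, with a summed level of 85.3 to 139 CPM in DDC and 46.1 to 62.9 CPM in Control. Mpo averaged 1.89 CPM in DDC and 5.80 CPM in Control (log2 difference -1.62, adjusted p = 0.0534) and was called lower with DESeq2 and without DDC 1, DDC 2 or Control 2 (adjusted p 0.0352 to 0.0448). Elane and Ltf had log2 differences of -1.13 and -0.70 and were not called. DDC 1 was the lowest DDC liver for the sum, with Ly6g and Elane at 0 counts, but the highest for Cxcr2, at 12.7 CPM. All 9 monocyte and macrophage markers rose, with a summed level of 787 to 898 CPM in DDC and 79.7 to 94.8 CPM in Control and none at 0. All 5 Kupffer cell markers rose (820 to 1184 CPM in DDC, 214 to 299 CPM in Control, none at 0). Of 9 T and NK cell markers 4 rose and none fell (12.2 to 15.3 CPM in DDC, 5.47 to 7.93 CPM in Control), with Cd3d at 0 in Control 1.

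Of 6 B cell markers 3 fell and none rose (1.502 to 2.09 CPM in DDC, 1.94 to 4.41 CPM in Control), with Cr2 at 0 in DDC 4 and Control 1. Cd79b had a log2 difference of 0.47 and was called higher in 4 settings, those on library totals or FPKM (adjusted p 0.0174 to 0.0433). Of the marker calls, those of Cd79a, Efnb2, Ly6c2, Ms4a1, Cd3g and Timd4 were lost in 10, 8, 7, 3, 2 and 1 of the 19 settings. Counted over all lists, 25 genes without a call gained one in at least 1 setting, 22 of them higher and 3, Mpo, Des and Ccl19, lower. Of 10 stellate cell and fibroblast markers 6 rose (648 to 732 CPM in DDC, 330 to 371 CPM in Control), and none was at 0. Des averaged 21.8 CPM in DDC and 52.4 CPM in Control (log2 difference -1.27, adjusted p = 0.0959) and was called lower without DDC 1 (adjusted p = 0.000483) and with limma voom (adjusted p = 0.0269). Of 6 sinusoidal and 6 vascular endothelial markers 4 rose in each list and none fell. The sinusoidal sum was 270 to 309 CPM in DDC and 151 to 175 CPM in Control, and the vascular sum 127 to 161 CPM in DDC and 89.5 to 102 CPM in Control. Of 5 mesothelial markers 2 rose (46.8 to 74.6 CPM in DDC, 13.6 to 69.3 CPM in Control, the highest in Control 2 and there mostly Krt19), with Upk3b at 0 in Control 3. The part of any of these cells in the chemokine levels was not tested.

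Reads could be shared at a few members. Cxcl2 has 101 of its 2209 distinct 75-base stretches in common with Cxcl3 in GENCODE M21 transcripts, so counting could split some reads between them. Cxcl5 shares 11 of 1926 such stretches with 2 other genes, and the other 8 members share none. Cxcl10 overlaps Art3 and Cxcl16 overlaps Zmynd15, each on the opposite strand, and no source used here states if the counting was strand-aware. Art3 averaged 8.40 CPM in DDC and 12.7 CPM in Control, and Zmynd15 18.5 CPM in DDC and 6.88 CPM in Control.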

How the data were processed

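Whole-liver RNA of 4 DDC and 4 Control mice was sequenced as 150-base read pairs after poly(A) selection with dUTP second strands, per the labels' protocols. The authors deposited raw gene counts for 55401 genes and FPKM, scaled by length and depth, for 33467 genes on GRCm38. Tools named in the submitters' processing notes are cutadapt, FastQC, HISAT2, StringTie and DESeq2, without versions. Counts of all 8 libraries were fitted with edgeR 4.0.16 (R 4.3.3): TMM scaling, filterByExpr, robust quasi-likelihood, two-sided, Benjamini-Hochberg adjustment at 0.05, no covariate. The standard error is the log2 fold change over the square root of F. The code was tested on simulated data.

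The members and lists were chosen with earlier results of these data known. All members, receptors and other CXC ligands are named. From other lists, called genes with a mean of at least 0.5 CPM are named, at most 6 by fold, plus any that moved against its list. The 2 genes most like each member were taken by r of log2 CPM (prior count 2) among genes reaching 1 CPM. Alternatives were other scalings, filters, DESeq2 1.42.0, limma 3.58.1 (voom and log2 FPKM with pseudocounts of 0.1 and 1), each library left out, and a replicate block. Libraries of a group differed beyond counting noise. The values of 1 listed marker gene are not reported here.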

Additional observations from a re-analysis of the deposited data

Results flagged for a closer look

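Of 50 sets of 4 values examined (members, other CXC ligands, receptors and the summed FPKM in each group), 4 had a sample far from the other 3 by Dixon's criterion, and chance gives about 1 in 20. Cx3cl1 was 11.8 CPM in DDC 2, against 13.5 to 13.7 CPM in the other DDC livers, a small gap in a tight group. In Control 2, Cx3cl1 stood at 6.46 CPM, and its other Control livers at 1.38 to 1.86 CPM. Control 4 had 0.289 CPM of Cxcr5 (14 counts) and Control 1 to 3 had 0.0761 to 0.0784 CPM (4 counts each). Control 4 also had 0.867 CPM of Ackr1, where Control 1 to 3 had 0.543 to 0.570 CPM. The cause of these values was not tested.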

How the results depend on the processing

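In each of the 19 alternative settings the same 7 members were called higher and Cxcl12 lower. Left-out libraries gave 7 members higher, 1 to 2 lower (2 without DDC 1, through Cxcl13), 3 to 4 receptors higher and 9632 to 11760 genes called in all, against 11098. Cxcl1 was never called, and its log2 fold change changed sign to 0.34 under plain library totals, 0.28 when totals left out the top 20 genes, and 0.47 and 0.44 on log2 FPKM with pseudocounts of 0.1 and 1. The log2 ratio of the summed member FPKM was 1.15 (1.05 to 1.22 with libraries left out), -0.14 as summed TMM-scaled CPM and 0.49 as summed CPM by library totals, the last chosen after seeing the data. With the replicate block 9464 genes were called, with 7 members higher and 1 lower, so no member's call changed. Deviations of same-numbered libraries correlated from -0.21 to 0.03 and those of differently numbered libraries from -0.13 to 0.19. These values cannot show if the replicate numbers pair the animals. A called member's adjusted p reached at most 0.0174, for Cx3cl1 with libraries left out. Depth limits Cxcl2, Cxcl3 and Cxcl17 in Control livers, with 8 to 35, 5 to 16 and 6 to 23 counts.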
